A study of Gossypium hirsutum and Gossypium barbadense with 16 samples.

Results

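The *ARF6* and *ARF8* genes of tetraploid cotton were followed here as 4 genes in 2 homoeolog pairs. *ARF6* is Gohir.A05G146200 on the A subgenome and Gohir.D05G148500 on the D subgenome, and *ARF8* is Gohir.A12G052900 and Gohir.D12G051400. They were chosen by their gene identifiers from 52514 ortholog rows, of which 42627, with all 4 genes among them, had an FPKM over 0 in at least 1 library. The names come from the place of the genes beside *Arabidopsis* *ARF6* and *ARF8* in the study's tree of all *ARF* genes. Of the cotton genes the tree names only those on the study's lists of genes changed in fibers, and it marks these 4 as lower there. Such lists were made from fiber against epidermis and fiber against the mutant at 2 days post anthesis (DPA) and from the mutant against the wild types at 0 DPA, and the tree does not say which of them held a gene. Values of the 4 genes in all those contrasts are therefore a description with no test.

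Auxin response factors are transcription factors that bind auxin response elements in promoters. At low auxin they are held inactive by Aux/IAA repressors, which auxin marks for degradation. In *Arabidopsis*, *ARF6* and *ARF8* are activators that overlap in function during flower maturation and are targets of the same microRNA family. Auxin is known to promote the initiation of cotton fibers, each of which grows from a single cell of the ovule epidermis.

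Laser capture microdissection (LCM) had been used to cut cells from ovules of greenhouse plants, in 8 groups of 2 biological replicates, 16 libraries in all. The groups were epidermal cells at 0 and 2 DPA of the wild types TM-1 (*G. hirsutum*, GhTM-1) and 3-79 (*G. barbadense*, Gb3-79) and of the fiberless MD17 (GhMD17), and fiber cells of both wild types at 2 DPA. GhMD17 is a naturally occurring naked-seed mutant in a *G. hirsutum* background and not a line that differs from GhTM-1 at 1 gene. Wild-type ovules at 2 DPA were cut first for the protruding fibers and then for the epidermis beneath, so stage in the wild types goes with removal of the fibers, and the epidermis at 0 DPA can still hold fiber initials. Reads of Gb3-79 were mapped to another genome than those of the other lines, so species and genome reference cannot be told apart.

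Levels are in FPKM, fragments scaled to transcript length and to all fragments mapped in a library, which allows genes of unlike length to be compared. The fragments behind a value are unknown, but steps in the low values gave a rough estimate of the relative depth of the 10 *G. hirsutum* libraries. It ranged from 0.518 to 2.25 times that of GhTM-1 epidermis at 0 DPA replicate 1, both extremes being GhMD17 at 0 DPA. Few genes support it, 10 of 132 for the lowest value and 38 of 771 for the highest. The summed FPKM of 4 fiber *MYB* genes, chosen by the study on these samples, was 413 to 496 in the fiber libraries, 160 to 442 in wild-type epidermis and 9.21 to 31.2 in GhMD17. Most of the sum came from the *MYB106* genes Gohir.1Z049716 and Gohir.D04G191100. The *MYB66* genes were higher in fiber but overlapped between the other classes, at 1.67 to 9.83 FPKM in wild-type epidermis and 2.43 to 6.73 FPKM in GhMD17 for Gohir.A05G359100, and at 0.963 to 4.45 FPKM and 2.05 to 4.51 FPKM for Gohir.D04G055100. None of the 4 markers was at 0 in all libraries of a cell class, and the part of fiber RNA in the differences below was not tested. In bulk samples, fewer cells of a type and less RNA per cell cannot be told apart.

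All 4 genes had their highest mean in GhMD17 epidermis at 0 DPA and their second highest in GhMD17 epidermis at 2 DPA. Several, but not all, of the other *ARF* genes in the study's tree had this order too. The share of all genes with it was not computed. *ARF6* was lowest in fiber cells of both lines. The A copy of *ARF6*, Gohir.A05G146200, measured 19.9 and 16.7 FPKM in GhMD17 at 0 DPA and 10.9 and 14.7 FPKM at 2 DPA. In GhTM-1 epidermis it measured 6.21 and 11.8 FPKM at 0 DPA and 8.34 and 11.2 FPKM at 2 DPA, and in Gb3-79 epidermis 8.69 and 6.66 FPKM at 0 DPA and 7.81 and 7.36 FPKM at 2 DPA. In fiber cells it measured 1.96 and 3.43 FPKM in GhTM-1 and 3.63 and 2.28 FPKM in Gb3-79. The 4 fiber libraries lay below all wild-type epidermal libraries, and 3 of the 4 GhMD17 libraries lay above all of them. In the order of the group means, replicates of neighbours did not overlap between the 2 GhMD17 stages and between Gb3-79 epidermis at 2 DPA and Gb3-79 fiber. All other neighbours overlapped.

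The D copy of *ARF6*, Gohir.D05G148500, separated the cell classes most clearly. It measured 13.5 and 12.8 FPKM in GhMD17 at 0 DPA and 9.44 and 11 FPKM at 2 DPA, and from 4.84 to 7.56 FPKM in the 8 wild-type epidermal libraries. In fiber cells it measured 0.707 and 1.31 FPKM in GhTM-1 and 2.51 and 3.18 FPKM in Gb3-79. The classes did not overlap, with all 4 GhMD17 libraries above and all 4 fiber libraries below wild-type epidermis. The share of all genes with the classes apart in this way was not computed. Between single groups at 2 DPA, 30.7% of all genes in GhTM-1 and 32.6% in Gb3-79 were lower in fiber than in epidermis without overlap. Higher in GhMD17 than in a wild type without overlap were 24.9% to 27.5%, by wild type and stage. The 4 wild-type epidermal groups overlapped with their neighbours in order, at means of 5.79 to 6.20 FPKM. The highest library was 19.1 times the lowest, the widest range of the 4 genes.

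*ARF8* spread more between replicates and did not set fiber apart in the same way. Its A copy, Gohir.A12G052900, measured 25.9 and 18.8 FPKM in GhMD17 at 0 DPA and 16.9 and 12.5 FPKM at 2 DPA. In GhTM-1 it measured 13.2 and 8.64 FPKM in epidermis at 0 DPA, 13.9 and 8.52 FPKM at 2 DPA, and 11.4 and 4.69 FPKM in fiber. In Gb3-79 it measured 7.42 and 5.39 FPKM, 7.08 and 4.47 FPKM, and 3.74 and 4.28 FPKM in the same order. The GhTM-1 fiber libraries lay inside the range of wild-type epidermis, 4.47 to 13.9 FPKM, and the Gb3-79 fiber libraries lay below it.

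The D copy of *ARF8*, Gohir.D12G051400, measured 12.2 and 11.2 FPKM in GhMD17 at 0 DPA and 10.4 and 8.56 FPKM at 2 DPA. In GhTM-1 it measured 6.13 and 4.68 FPKM in epidermis at 0 DPA, 8.84 and 6.63 FPKM at 2 DPA, and 4.88 and 2.61 FPKM in fiber. In Gb3-79 it measured 6.08 and 3.76 FPKM, 3.81 and 4.21 FPKM, and 1.58 and 3.76 FPKM in the same order. For this gene 3 of the 4 GhMD17 libraries lay above all wild-type epidermal libraries and 3 of the 4 fiber libraries below all of them.

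**Figure D1:**
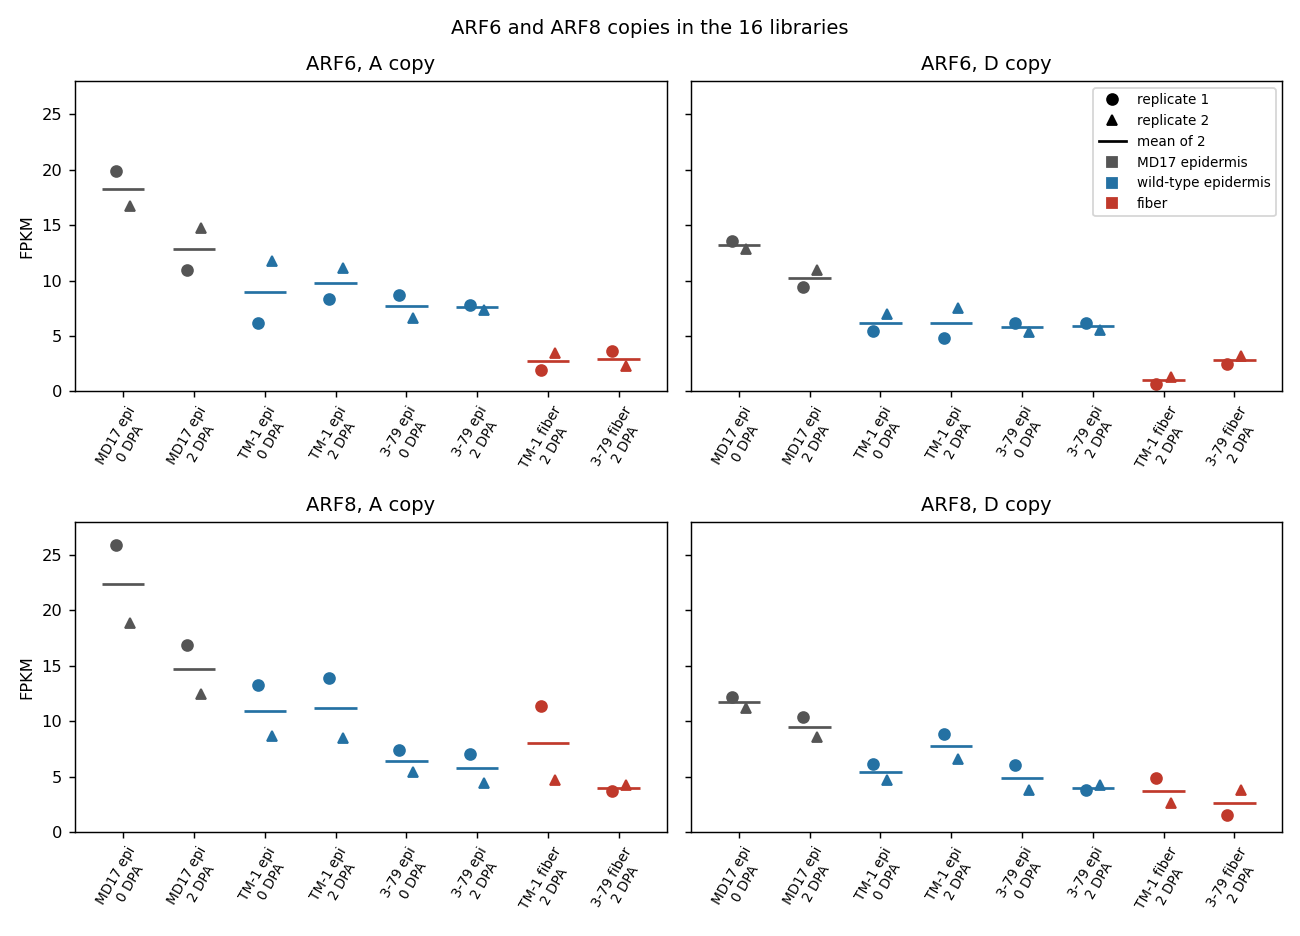
FPKM of each *ARF6* and *ARF8* copy (vertical axis) in the 8 groups (horizontal axis), with replicate 1 as circles, replicate 2 as triangles and the mean of both as a line; epi is epidermal cells. GhMD17 (grey) holds the highest means of every copy, and only for the D copy of *ARF6* do GhMD17, wild-type epidermis (blue) and fiber (red) stay apart.

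The contrasts that chose the genes are given first, as a description. At 0 DPA the ratio of the GhMD17 mean to the GhTM-1 mean was nearly the same for the 4 genes, at 2.04 and 2.13 for the A and D copies of *ARF6* and 2.04 and 2.16 for those of *ARF8*. The libraries do not resolve ratios that finely. With 1 library left out, the differences of log2(FPKM + 1) ranged from 0.59 to 1.42 and 0.83 to 1.15 for *ARF6*. For *ARF8* they ranged from 0.70 to 1.26 and 0.83 to 1.16. Against Gb3-79 the ratios were 2.38, 2.28, 3.49 and 2.38. Replicates of all 4 genes were higher without overlap in GhMD17 than in either wild type, as were those of 24.9% of all genes against GhTM-1 and 27.5% against Gb3-79.

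In fiber the means of both pairs were below those of epidermis, by unequal ratios. In GhTM-1 the A and D copies of *ARF6* were 3.61-fold and 6.14-fold lower in fiber, and those of *ARF8* 1.39-fold and 2.06-fold lower. In Gb3-79 the *ARF6* copies were 2.57-fold and 2.07-fold lower and the *ARF8* copies 1.44-fold and 1.5-fold lower. Leaving out GhTM-1 fiber replicate 2 turned the direction of the A copy of *ARF8* in GhTM-1, from -0.50 to 0.059 on the log2(FPKM + 1) scale, and that of the D copy shrank from -0.91 to -0.56. In Gb3-79 the differences of the *ARF8* copies were -0.41 and -0.51, and they shrank to -0.13 for A without epidermis replicate 1 and to -0.073 for D without fiber replicate 1. Those of *ARF6* stayed at or below -0.72 in both lines with any library left out.

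The mean log2(FPKM + 1) of the *ARF6* copies minus that of the *ARF8* copies sets the pairs against each other in 1 library. It was -1.93 and -0.50 in GhTM-1 fiber and 0.21 and -0.44 in Gb3-79 fiber. The epidermal libraries at 2 DPA had -0.71 and 0.26 (GhTM-1) and 0.35 and 0.47 (Gb3-79). The fiber mean was -0.66 ± 0.90 (SD, n = 4) and the epidermal mean 0.09 ± 0.55 (SD, n = 4), and the libraries of both overlapped.

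Whether *ARF6* and *ARF8* stayed higher in GhMD17 at 2 DPA was tested with limma over all 42627 genes, a contrast not used to choose the genes. The GhMD17 libraries also entered the fiber contrasts that helped to choose the genes, and so did the wild-type epidermal libraries at 2 DPA. Against GhTM-1 epidermis the GhMD17 means were 1.31-fold and 1.65-fold higher for the A and D copies of *ARF6*, and 1.31-fold and 1.22-fold higher for those of *ARF8*. The differences on the log2(FPKM + 1) scale were 0.36 (SE 0.32), 0.66 (SE 0.25), 0.38 (SE 0.39) and 0.27 (SE 0.34). With 1 library left out they ranged from 0.16 to 0.56, 0.38 to 0.94, 0.058 to 0.71 and 0.084 to 0.45. None of the 4 passed an adjusted p of 0.05, where 2.07% of all genes passed as higher. The lowest adjusted p was that of the D copy of *ARF6* (limma, adjusted p = 0.186), the only copy with an unadjusted p under 0.05 and the only copy whose replicates did not overlap (26.5% of all genes were higher without overlap). The 95% interval of its log2 difference ran from 0.12 to 1.20, and those of the others included 0 and reached from 1.02 to 1.24.

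Against Gb3-79 epidermis at 2 DPA the GhMD17 means were 1.69-fold and 1.73-fold higher for the A and D copies of *ARF6* and 2.54-fold and 2.36-fold higher for those of *ARF8*. Replicates of all 4 genes were higher without overlap, as were those of 25.5% of all genes. The log2 differences were 0.67 (SE 0.32), 0.70 (SE 0.25), 1.22 (SE 0.39) and 1.06 (SE 0.34). None passed after adjustment (limma, adjusted p = 0.226, 0.103, 0.0719 and 0.0750), where 5% of all genes passed as higher, and 3 of the 4 had an unadjusted p under 0.05. The A copy of *ARF8* passed with only genes of a mean over 1 FPKM (limma, adjusted p = 0.0436) and with the replicate number as a block (limma, adjusted p = 0.0122). With 1 library left out, the log2 difference of the A copy of *ARF8* ranged from 0.944 to 1.505. That of the D copy of *ARF8* ranged from 0.934 to 1.184.

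Stage was compared within each line. In GhMD17 all 4 genes had lower means at 2 DPA than at 0 DPA, with ratios of 0.701 and 0.773 for the A and D copies of *ARF6* and 0.657 and 0.810 for those of *ARF8*. Their replicates did not overlap, as for 17% of all genes in that direction. None passed (limma, lowest adjusted p = 0.764), where 0.253% of all genes passed as lower, and none had an unadjusted p under 0.05. The libraries at 0 DPA are those that helped to choose the genes as high in GhMD17.

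In the wild types the ratios of 2 to 0 DPA in GhTM-1 were 1.09 and 1.00 for *ARF6* and 1.03 and 1.43 for *ARF8*, and in Gb3-79 they were 0.988 and 1.02, and 0.901 and 0.815. The D copy of *ARF8* in GhTM-1, at 1.43, was higher at 2 DPA without overlap of replicates, as were 14.8% of all genes, and the replicates of the other 7 gene and line combinations overlapped. None of the 4 genes passed in GhTM-1 (limma, lowest adjusted p = 0.714), where 0.889% of all genes passed as higher and 0.46% as lower. None passed in Gb3-79 (limma, lowest adjusted p = 0.967), where 0.469% passed as higher and 0.429% as lower. No copy had an unadjusted p under 0.05 in either line. The change in GhMD17 minus that in GhTM-1 was -0.64 (SE 0.45), -0.33 (SE 0.35), -0.60 (SE 0.55) and -0.73 (SE 0.48) on the log2 scale for the A and D copies of *ARF6* and of *ARF8*. None of these differences passed either (limma, lowest adjusted p = 0.909), with none at an unadjusted p under 0.05 and 0.138% of all genes passing in that direction. Their 95% intervals had lower ends between -1.81 and -1.10 and all included 0. The libraries in these stage comparisons, at 0 and at 2 DPA, also entered contrasts that helped to choose the genes.

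The wild types were then set side by side. In fiber cells the D copy of *ARF6* was 2.82-fold higher in Gb3-79 than in GhTM-1, with a log2 difference of 0.95 (SE 0.25) and a 95% interval from 0.41 to 1.49 (limma, adjusted p = 0.0423). It was the only one of the 4 genes to pass in any contrast tested, and 3.85% of all genes passed as higher in this contrast. The fiber libraries of both lines also entered the contrasts that helped to choose the genes as low in fiber. The call ended with only the 4 fiber libraries in the fit (limma, adjusted p = 0.226) and when any of 11 of the 16 libraries was left out. The lowest of its difference without a library was 0.73, without GhTM-1 fiber replicate 1, and the highest 1.17, without GhTM-1 fiber replicate 2. The GhTM-1 values, 0.707 and 1.31 FPKM, are the lowest of any of the 4 genes in any library.

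The other 3 genes did not pass between the fiber groups, where 3.29% of all genes passed as lower. The A copy of *ARF6* was close in both lines, at means of 2.95 FPKM in Gb3-79 and 2.70 FPKM in GhTM-1, and the *ARF8* copies had lower means in Gb3-79, by 2.01-fold for A and 1.40-fold for D. Replicates of the A copy of *ARF8* did not overlap, as for 19.1% of all genes in that direction. The change from epidermis to fiber differed between the lines by 0.99 (SE 0.35) for the D copy of *ARF6*, which did not pass (limma, adjusted p = 0.411, unadjusted p = 0.0166). The other 3 copies differed by 0.09 to 0.42, and 0.122% of all genes passed in that direction. The change within each line is itself among the contrasts that helped to choose the genes.

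In epidermal cells none of the 4 genes passed between the lines. At 0 DPA the log2 differences of Gb3-79 minus GhTM-1 were -0.15 and -0.08 for the A and D copies of *ARF6* and -0.68 and -0.13 for those of *ARF8* (limma, lowest adjusted p = 0.343, none at an unadjusted p under 0.05), where 3.97% of all genes passed as lower. Replicates of the A copy of *ARF8* were lower without overlap, as for 23.6% of all genes. At 2 DPA they were -0.31 and -0.04 for *ARF6* and -0.84 and -0.79 for *ARF8*, where 3.6% of all genes passed as lower and 5.91% as higher. The A copy of *ARF6* and both *ARF8* copies were lower in Gb3-79 at 2 DPA without overlap of replicates, as were 18.7% of all genes. The *ARF8* copies were 1.94-fold and 1.93-fold lower, and neither passed (limma, adjusted p = 0.232 and 0.199), with only the D copy at an unadjusted p under 0.05.

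**Figure D2:**
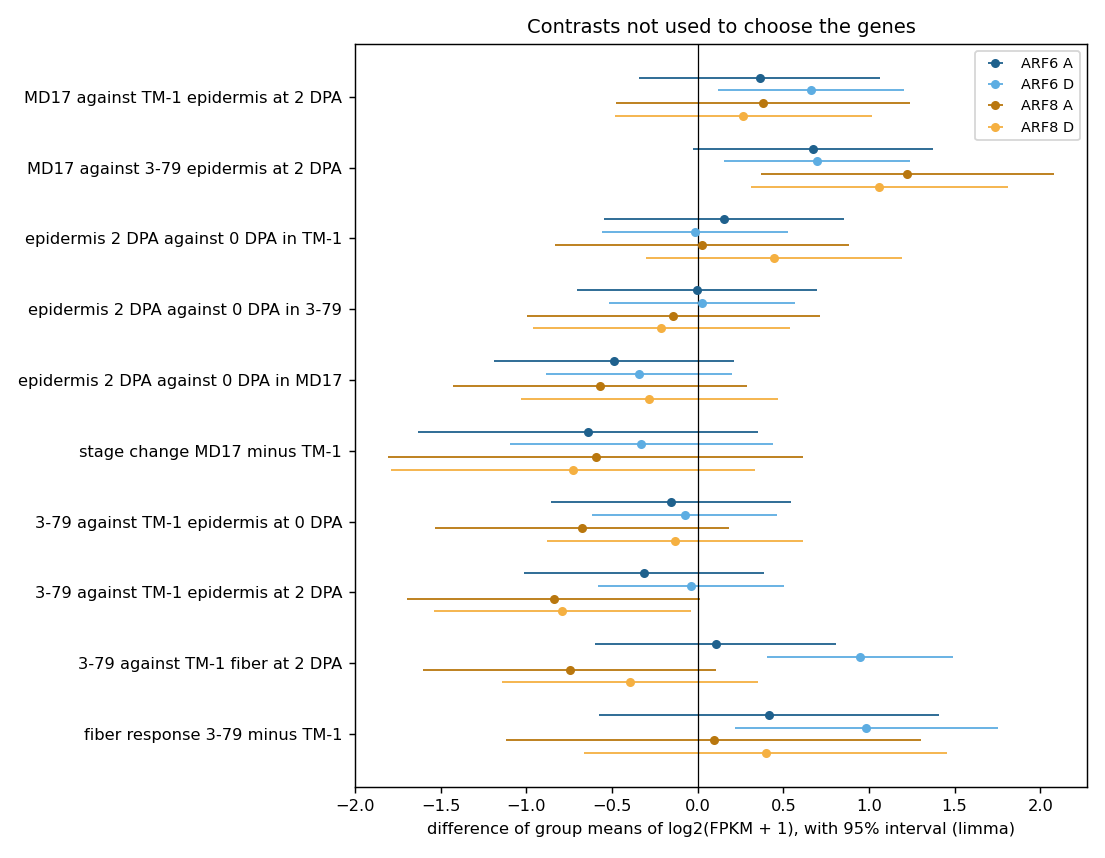
Differences of group means of log2(FPKM + 1) (horizontal axis) with 95% intervals from limma for the 4 genes in the 10 contrasts that did not choose them (vertical axis); the lower 4 contrasts set Gb3-79 against GhTM-1. The D copy of *ARF6* in fiber of Gb3-79 against GhTM-1, at 0.95, is the only point with an adjusted p under 0.05. The libraries compared also entered the contrasts that helped to choose the genes.

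The A and D copies were compared within each library. The A copy was higher in 15 of 16 libraries for *ARF6* and in 16 of 16 for *ARF8*. The difference of log2(FPKM + 1), A minus D, averaged 0.41 ± 0.30 (SD, n = 16) for *ARF6*, and an exact two-sided sign-flip permutation over libraries gave p = 0.000214 (adjusted p = 0.00117). For *ARF8* it averaged 0.61 ± 0.31 (SD, n = 16), with p = 3.05e-05, the smallest that 16 libraries can give (adjusted p = 0.000336). Both held with any library left out. A small difference in the same direction in all libraries also gives the smallest p. The share of all homoeolog pairs with so steady a difference was not computed, so the p does not set these pairs apart. Among pairs past its own fold limit the study reports more with a higher D than with a higher A copy. Only uniquely mapped reads were counted, so a difference in the level of the copies and a difference in how many of their reads map uniquely, or in their gene models, cannot be told apart.

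As a share of the FPKM of both copies, the D copy made up from 26.5% to 58.3% of *ARF6* (median 42.1%) and from 29.7% to 48.5% of *ARF8* (median 37.6%). For *ARF6* the D share was 36.7% to 46.6% in the 12 epidermal libraries. It was lowest in GhTM-1 fiber, at 26.5% and 27.6%. In Gb3-79 fiber it was 40.9% and 58.3%, and the latter was the only library of either pair with more D than A. The low share in GhTM-1 fiber thus held in both replicates, at pair sums of 2.67 and 4.75 FPKM, while the Gb3-79 fiber replicates were the farthest apart of any group in this share.

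The same per-library difference shows whether the balance of the copies moved with line or cell type. For *ARF6*, A minus D averaged 0.37 ± 0.14 (SD, n = 4) in GhMD17 and 0.42 ± 0.19 (SD, n = 8) in wild-type epidermis, over both stages. For *ARF8* it averaged 0.72 ± 0.22 (SD, n = 4) and 0.52 ± 0.31 (SD, n = 8). Between fiber and epidermis at 2 DPA it was 0.45 ± 0.58 (SD, n = 4) and 0.45 ± 0.18 (SD, n = 4) for *ARF6*, the fiber values spanning -0.35 to 0.94. For *ARF8* it was 0.69 ± 0.40 (SD, n = 4) in fiber and 0.44 ± 0.30 (SD, n = 4) in epidermis. No p is given for these comparisons, because they use contrasts that helped to choose the genes.

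The wild types were compared with a test. A minus D was smaller in Gb3-79 than in GhTM-1 for both pairs. For *ARF6* it was 0.23 ± 0.29 (SD, n = 6) against 0.63 ± 0.27 (SD, n = 6) (exact permutation within cell class and stage, p = 0.0463, adjusted p = 0.170 over the 11 permutation tests made). For *ARF8* it was 0.42 ± 0.33 (SD, n = 6) against 0.74 ± 0.28 (SD, n = 6) (exact permutation, p = 0.120, adjusted p = 0.265). Neither passed after adjustment. With 1 library left out, the *ARF6* difference passed in 1 of 12 cases, without GhTM-1 epidermis at 0 DPA replicate 1 (-0.49), and not in 11.

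The *ARF6* copies minus the *ARF8* copies averaged 0.18 ± 0.33 (SD, n = 6) in Gb3-79 and -0.50 ± 0.84 (SD, n = 6) in GhTM-1. The difference of 0.68 did not pass (exact permutation, p = 0.0926, adjusted p = 0.255). With 1 library left out it passed in 1 of 12 cases, without GhTM-1 epidermis at 0 DPA replicate 2 (0.87), and not in 11. In GhMD17 the mean was -0.05 ± 0.26 (SD, n = 4) and in wild-type epidermis 0.09 ± 0.47 (SD, n = 8).

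**Figure D3:**
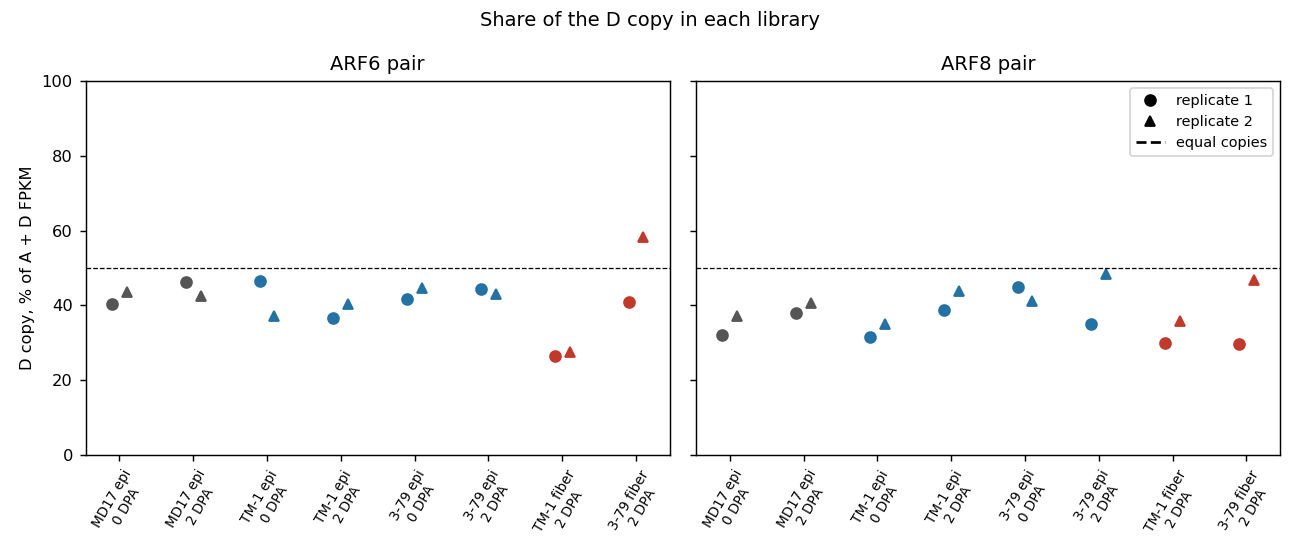
Share of the D copy in the summed FPKM of both copies (vertical axis, percent) in each library of the 8 groups (horizontal axis), for the *ARF6* and *ARF8* pairs; circles are replicate 1, triangles replicate 2, and the dashed line marks equal copies. All points but Gb3-79 fiber replicate 2 in *ARF6*, at 58.3%, lie below the line, and the GhTM-1 fiber points of *ARF6* are the lowest of that pair.

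Other *ARF* genes from the same tree, 16 in all and likewise chosen by the study on these samples, give the background of the family. At 2 DPA 2 of the 16 passed as higher in GhMD17 than in GhTM-1, the homoeologs of *ARF16*, Gohir.A10G205300 (log2 difference 1.51, limma, adjusted p = 0.00565) and Gohir.D10G213600 (1.37, limma, adjusted p = 0.0113). *ARF16* is a repressor-type *ARF* in *Arabidopsis*. Against Gb3-79, 3 of the 16 passed as higher in GhMD17, the *ARF7* gene Gohir.A06G078900 at 1.54 and the *ARF2* genes Gohir.D12G195600 at 1.27 and Gohir.D07G051500 at 1.00. None of the 16 passed as lower in either contrast or in either direction in the 3 stage contrasts. Between the wild types in epidermis at 2 DPA, Gohir.D10G213600 was higher in Gb3-79 by 1.31 (limma, adjusted p = 0.00886) and Gohir.A06G078900 lower, at -1.51 (limma, adjusted p = 0.00669).

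The median log2 difference of GhMD17 minus GhTM-1 at 2 DPA was 0.37 for the 4 genes, 0.51 for the other 16 and 0.08 for all genes. Against Gb3-79 it was 0.88, 0.20 and 0.01. In fiber minus epidermis, contrasts that helped to choose all of them, the medians in GhTM-1 were -1.23, -1.10 and -0.09. In Gb3-79 they were -0.68, -1.28 and -0.11. The 4 genes thus lay on the same side of the median of all genes as the median of the other 16 in each of these. Not every gene of the 16 did. In each of the 2 GhMD17 contrasts 3 of them had a negative difference, and in fiber minus epidermis 1 had a positive difference in each line.

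The family did not share 1 direction between copies. Of 5 other pairs with both copies in the list, the *ARF2* pairs on chromosomes 07 and 11 also had the higher A copy, in 12 and 15 of 16 libraries. *ARF5*, *ARF16* and the pair of *ARF19c* and *ARF19d* had the higher D copy, in 11, 13 and 12 of 16 libraries. The mean of A minus D was larger for *ARF8*, 0.61, and *ARF6*, 0.41, than for any of these, which ran from -0.33 to 0.31. These other pairs were not tested.

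The copies of a pair followed each other more closely than the pairs did. Over the 16 libraries, which share groups, Pearson's r of log2(FPKM + 1) was 0.94 between the *ARF6* copies and 0.91 between the *ARF8* copies, and 0.57 to 0.74 between copies of different pairs. Among 17727 other genes with a mean of at least 5 FPKM, the D copy ranked 17 in likeness to the A copy of *ARF6* and the A copy 30 in likeness to the D copy. For *ARF8* each copy ranked 7 for the other. On linear FPKM these ranks were 1, 5, 3 and 11 and by Spearman's rho 3, 21, 6 and 9, and r between copies of different pairs was 0.75 to 0.84 on linear FPKM. The genes most like the 4 were Gohir.D10G036500 (r = 0.97) for the A copy and Gohir.D12G022200 (r = 0.98) for the D copy of *ARF6*, and Gohir.A09G160400 (r = 0.93) for the A copy and Gohir.A07G026900 (r = 0.96) for the D copy of *ARF8*. The next in order were Gohir.A10G028600 and Gohir.D01G027200, Gohir.D02G224300 and Gohir.D06G049700, Gohir.D02G047500 and Gohir.A03G026400, and Gohir.D03G136600 and Gohir.D13G195900. The reference tables matched none of these identifiers, so no function is given.

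Replicates of a group also differed by pair. The ratio of the *ARF6* to the *ARF8* sum was higher in replicate 2 than in replicate 1 in 7 of 8 groups. In GhTM-1 the ratio was 0.600 and 1.41 in epidermis at 0 DPA, 0.579 and 1.24 at 2 DPA, and 0.164 and 0.650 in fiber. In GhMD17 it was 0.878 and 0.984 at 0 DPA and 0.746 and 1.22 at 2 DPA. In Gb3-79 it was 1.10 and 1.32, 1.29 and 1.49, and, in fiber, the exception, 1.15 and 0.679. As deviations from the group means, the copies of a pair went together (r = 0.67 for *ARF6* and 0.71 for *ARF8*), and copies of different pairs went against each other (r = -0.62 to -0.29). With 2 replicates a group, these 16 deviations hold 8 independent differences.

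**Figure D4:**
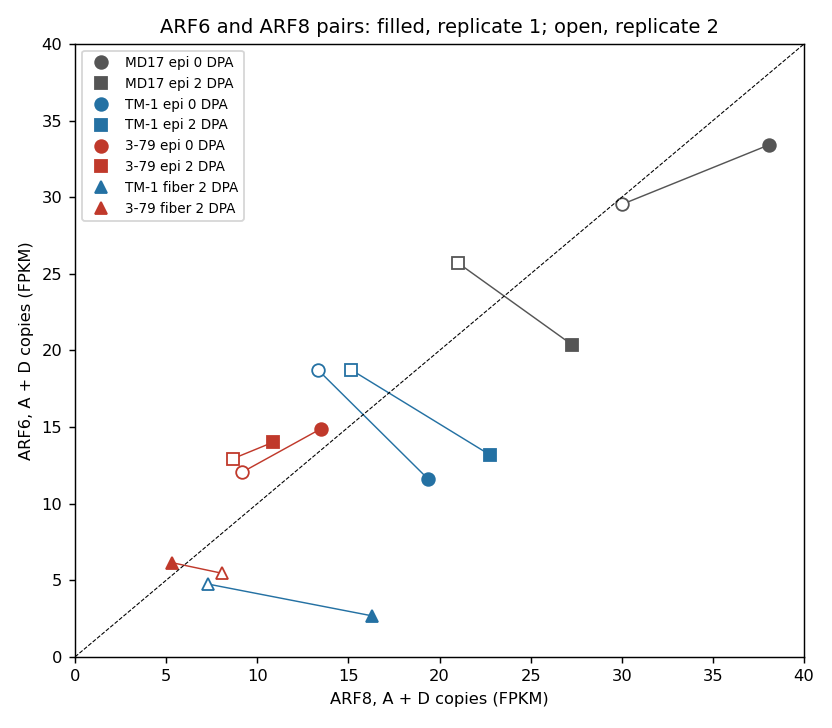
Summed FPKM of the *ARF6* copies (vertical axis) against that of the *ARF8* copies (horizontal axis) in each library, with the 2 replicates of a group joined by a line, replicate 1 filled and replicate 2 open; the dashed line marks equal sums. GhMD17 at 0 DPA lies highest on both axes, fiber lies lowest in *ARF6*, and in GhTM-1 replicate 2 lies to the upper left of replicate 1 in all 3 groups.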

How the data were processed

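The authors mapped LCM RNA-seq reads with TopHat 2.1.1 to *G. hirsutum* v2.0 (GhTM-1, GhMD17) or *G. barbadense* v1.0 (Gb3-79), kept uniquely mapped reads and computed the deposited FPKM with Cufflinks 2.2.1 for each library. The FPKM of the ortholog table were used as deposited, and those of the 4 genes were checked to be the same in the tables of each line. Fragment counts were not used here. Groups were taken from the sample labels. The genes and lists were chosen with earlier results of these data known.

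Values were tested as log2(FPKM + 1) by limma 3.58.1 (R 4.3.3) on the means of all 8 groups, with eBayes and a trend, two-sided contrasts and Benjamini-Hochberg adjustment within each contrast over 42627 genes with FPKM over 0 in at least 1 library. An adjusted p under 0.05 passed. Fold changes in the text are ratios of mean FPKM. Single values per library were compared by exact permutation. Named genes were the 4, the 16 other *ARF* genes and the 3 most correlated genes of each. The limma procedure was tested on simulated data with known changes. That was a check of the procedure, and no power is given for differences of the size reported here. Alternatives were a pseudocount of 0.1, other filters, only the groups compared, a replicate block and median-ratio scaling. Others were GhTM-1 as the only wild type, other correlations and leaving out each library. The study's limits were a further one (unadjusted p under 0.01, a ratio over 1.5 and over 5 FPKM on average in the higher group). The p set against them was that of limma, where the study used an ANOVA, so its own calls can differ. No sequence of the genes was used here. Plots were drawn with matplotlib 3.10.9.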

Additional observations from a re-analysis of the deposited data

How the results depend on the processing

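With 2 replicates a group and unknown fragment counts, the number of libraries and the low FPKM in fiber limit the precision, and *ARF6* differences in fiber grow with a smaller pseudocount. The higher A copy in both pairs kept its direction and its side of the threshold with the other pseudocount, with scaling and without any 1 library. The number of the 4 genes higher in GhMD17 than in Gb3-79 at 2 DPA was 0 and became 1 with a mean over 1 FPKM, with the replicate block and with the study's limits, and ranged from 0 to 1 without a library. The number higher in Gb3-79 than in GhTM-1 fiber was 1 and became 0 with only the groups compared and with the study's limits, and ranged from 0 to 1 without a library. Differences between replicates 1 and 2 correlated weakly between groups, at -0.12 to 0.17 over 28 group pairs, and the block changed no other call. These correlations over 17728 genes cannot tell whether the replicate number went with the 4 genes. Their *ARF6* to *ARF8* ratio was higher in replicate 2 in 7 of 8 groups.

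Some differences changed sign, none of the tested ones past a threshold, and the causes were not tested. For *ARF6* A minus D, fiber minus epidermis became 0.17 with a pseudocount of 0.1 and ranged from -0.17 to 0.26 without a library, and GhMD17 minus wild type ranged from -0.11 to 0.0045. The *ARF6* minus *ARF8* difference in GhMD17, -0.13, became 0.10 with only GhTM-1 as wild type. Between the wild types, 2 differences kept their sign without a library, and their tests are given above. *ARF6* A minus D ranged from -0.49 to -0.28 and *ARF6* minus *ARF8* from 0.39 to 0.87. With median-ratio scaling the stage change of the D copy of *ARF6* became 0.021 in GhTM-1 and -0.00088 in Gb3-79. Without a library, stage changes in GhTM-1 ranged from -0.26 to 0.57 for the A and -0.29 to 0.26 for the D copy of *ARF6*, and from -0.30 to 0.35 for the A copy of *ARF8*. In Gb3-79 they ranged from -0.18 to 0.16 and -0.064 to 0.11 for *ARF6*, and from -0.42 to 0.14 and -0.50 to 0.072 for *ARF8*. Gb3-79 minus GhTM-1 ranged at 0 DPA from -0.57 to 0.26 and -0.23 to 0.081 for *ARF6* and from -0.42 to 0.15 for the D copy of *ARF8*, at 2 DPA from -0.31 to 0.24 for the D copy of *ARF6*, and in fiber from -0.19 to 0.39 for the A copy of *ARF6* and -0.84 to 0.046 for the D copy of *ARF8*. The difference in fiber response ranged from -0.47 to 0.66 and -0.046 to 0.84 for *ARF8*, and fiber minus epidermis in GhTM-1 from -1.07 to 0.059 for its A copy.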
